A study of Mus musculus with 2 samples.

Results

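Coagulation factors are made in different cells of the liver, and 10 of their genes were followed here from cell to cell: F2, F5, F8, F9, F10, Vwf, Proc, Pros1, Thbd and Serpinc1. They were chosen by name and matched by Ensembl identifier, and all 10 were among the 30406 genes that the deposited tables of both libraries list. The livers came from Col1a2CreER:Rosa26tdTomato mice, which carry a tamoxifen-inducible Cre recombinase under the Col1a2 promoter and a tdTomato reporter. One library held liver cells of healthy mice and the other of CCl4-injured mice, both of this genotype. In the study's methods CCl4, a hepatotoxin, was given 2 times per week for 12 weeks from an age of 8 to 10 weeks, and CD45-positive cells, mostly immune cells, were removed with magnetic beads. Per the labels, which speak of whole liver cells for either sample, livers were digested with pronase plus collagenase, and a Nycodenz gradient followed. The number of mice pooled is not given. With 1 library per group nothing was tested between conditions, and the 95% intervals given cover counting error only.

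Blood clots when thrombin, the product of F2, cuts fibrinogen. Factors IX and X are serine protease zymogens that are activated ahead of thrombin, and factors VIII and V are their cofactors, made from F8 and F5. Von Willebrand factor, made from Vwf, carries factor VIII in plasma and tethers platelets to vessel walls. The brakes are antithrombin, the product of Serpinc1, and the protein C system, in which thrombomodulin (Thbd) on the vessel wall turns thrombin toward activating protein C (Proc), with protein S (Pros1) as cofactor. The textbook source of most of these proteins is the hepatocyte, whereas factor VIII, von Willebrand factor and thrombomodulin are known as products of endothelial cells.

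Each value is a number of UMIs, which are counted molecules, summed over the cells of a population and divided by all UMIs of these cells, scaled to 1000000 UMIs (CPM). The kept cells were 5602 healthy cells with 46056151 UMIs and 7314 CCl4 cells with 87470008 UMIs. Clusters were named from marker genes and carry the word "like". In the healthy library 191 cells were hepatocyte-like, 1434 cholangiocyte-like (bile duct epithelium), 3507 endothelial-like and 231 mesothelial-like (the cell layer over the liver surface). The CCl4 library held 3351 mesenchymal-like cells (stellate cells, fibroblasts and smooth muscle), 1494 mesothelial-like, 178 macrophage and monocyte-like and 86 neutrophil-like cells, and 96 cells called endothelial-like that also held stellate transcripts, but 5 hepatocyte-like and 33 cholangiocyte-like cells. Because the makeup differed so far, the total level of a gene in a library was not compared, since in such totals fewer cells of a type and less RNA per cell cannot be told apart. The libraries shared 8 cell barcodes among the kept cells.

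Among healthy cells, 5 of the 10 genes had their highest level in hepatocyte-like cells (F2, F5, F9, F10 and Serpinc1), 4 in endothelial-like cells (F8, Vwf, Thbd and Pros1) and 1 in cholangiocyte-like cells (Proc). All 10 differed by more than 2-fold between hepatocyte-like and endothelial-like cells of the healthy library, as did 75.3% of the 4580 genes with at least 50 CPM in either class, so a difference of this size was common between them. The median log2 ratio of those 4580 genes was -1.26, which means that most were lower in hepatocyte-like cells. Past 2-fold, 922 of them were higher and 2527 lower in hepatocyte-like cells.

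**Figure D1:**
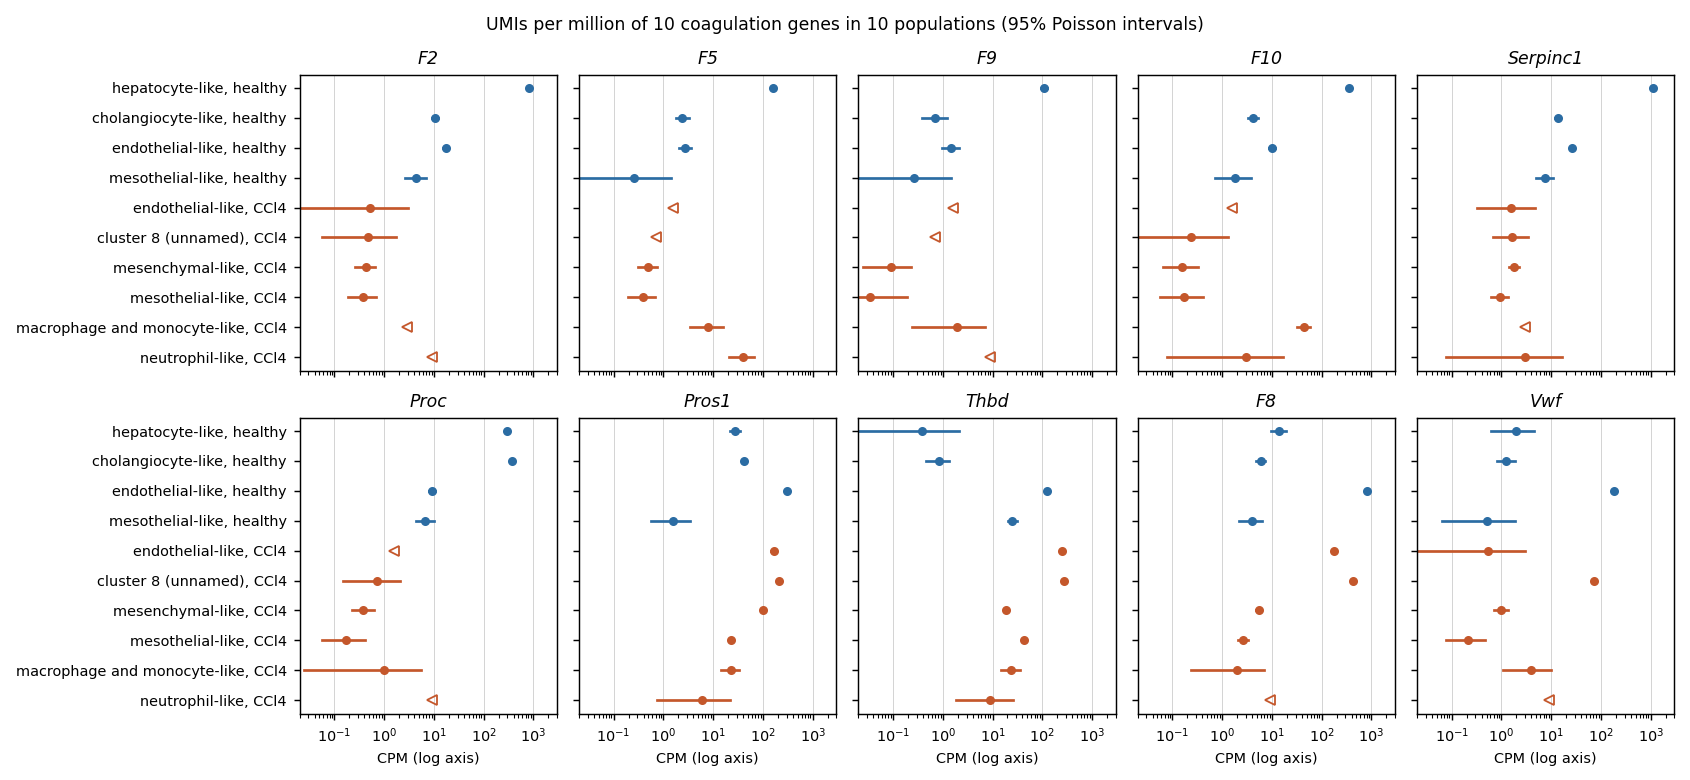
Level of the 10 genes in 10 populations, 1 panel per gene, in CPM on a log axis, with healthy populations in blue and CCl4 populations in orange. Points are sums over the cells of 1 library, lines are 95% Poisson intervals, and open triangles mark 0 UMIs, drawn at the limit of 3 counts. The top row and Proc peak in healthy hepatocyte-like or cholangiocyte-like cells, and F8 and Vwf in endothelial-like cells.

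The 5 hepatocyte-led genes include 3 zymogens of the clotting cascade, F2, F9 and F10. F2, the prothrombin gene, stood at 836 CPM (801 to 872) in hepatocyte-like cells, from 2153 UMIs. It was at 17.4 CPM in endothelial-like, 10.5 CPM in cholangiocyte-like and 4.43 CPM in mesothelial-like cells. F10, the gene of factor X, was at 349 CPM in hepatocyte-like cells, against 10.1, 4.16 and 1.82 CPM in the same order. The interval in hepatocyte-like cells lay above the other intervals for both genes. The hepatocyte-like cells held 78.2% of the healthy UMIs of F2 and 73.9% of those of F10, although they were 3.41% of the cells.

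F9, the haemophilia B gene, had 279 of its 334 healthy UMIs in hepatocyte-like cells, at 108 CPM (96.0 to 122), and was at 1.45 CPM in endothelial-like and 0.711 CPM in cholangiocyte-like cells. F5 was at 162 CPM in hepatocyte-like cells, and 2.70 CPM in endothelial-like and 2.41 CPM in cholangiocyte-like cells. Serpinc1, the antithrombin gene, was at 1102 CPM in hepatocyte-like cells, 25.7 CPM in endothelial-like and 13.5 CPM in cholangiocyte-like cells.

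Levels also differed among the hepatocyte-like cells themselves. The 47 cells with most UMIs held 73.1% of the class's UMIs. In these, F5 was at 207 CPM against 40.3 CPM in the other 144 cells, F2 at 994 against 408 CPM, and Serpinc1 at 1239 against 731 CPM. F10 differed less, at 379 against 268 CPM. Whether depth has a part in this was not tested.

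The 250 bases before the transcription start in RefSeq (build GRCm38.p6) were read for 7 of the 10 genes. Vwf, Proc and Thbd had no entry. All 7 are shown, 5 of hepatocyte-led and 2 of endothelial-led genes, so that genes with the same leading class can be read side by side, and the 100 bases next to the start are printed 5′ to 3′ on the strand of the gene. Capitals mark a match to AGGTCA, the element that many nuclear receptors bind, or to TTGCNNAA, the core that C/EBP factors bind, on either strand.
F2, chr2:91636458-91636557, minus strand: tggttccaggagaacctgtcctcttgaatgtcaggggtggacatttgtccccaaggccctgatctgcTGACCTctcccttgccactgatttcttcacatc
F5, chr1:164151735-164151834, plus strand: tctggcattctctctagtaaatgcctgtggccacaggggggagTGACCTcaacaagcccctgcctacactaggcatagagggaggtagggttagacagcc
F10, chr8:13037208-13037307, plus strand: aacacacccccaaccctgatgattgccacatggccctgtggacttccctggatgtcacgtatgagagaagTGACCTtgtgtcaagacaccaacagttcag
F9, chrX:59999364-59999463, plus strand: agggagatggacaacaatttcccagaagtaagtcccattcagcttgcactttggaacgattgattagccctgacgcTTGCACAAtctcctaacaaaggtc
Serpinc1, chr1:160978483-160978582, plus strand: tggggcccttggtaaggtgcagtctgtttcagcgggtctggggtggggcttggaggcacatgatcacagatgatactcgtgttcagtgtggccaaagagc
F8, chrX:75380042-75380141, minus strand: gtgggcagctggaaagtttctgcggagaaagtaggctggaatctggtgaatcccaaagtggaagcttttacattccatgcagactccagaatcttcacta
Pros1, chr16:62854207-62854306, plus strand: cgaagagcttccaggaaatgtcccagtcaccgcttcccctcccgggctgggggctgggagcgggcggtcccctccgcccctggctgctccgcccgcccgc

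The AGGTCA letters stood on the opposite strand, read as TGACCT, from base 33 to 28 before the start of F2, 57 to 52 before F5 and 30 to 25 before F10. In 14.0% of the 32851 RefSeq windows of this length the same letters occurred. F9 held TTGCNNAA from base 24 to 17 before its start, as 9.56% of all windows did anywhere in their length. Neither motif was in the windows of F8, Pros1 or Serpinc1. The other motifs searched, GTTAAT of HNF1, CCGGAA of ETS factors and TATAAA, read on both strands, had no match in any of the 7 windows, against 6.43%, 12% and 12.4% of all windows. The window of Pros1 held 15 CG pairs and that of F8 held 2, beside a median of 6 over all windows. A match of letters is a description and not a bound site, and no binding was measured here.

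Free RNA from broken hepatocytes enters every droplet, so low levels in other cells were set against it. If 1 source supplies all of it, the counts of its genes keep the same ratio in every cell type. UMIs of each factor per UMI of 10 hepatocyte genes (Alb, Apoa1, Apoa2, Apoc3, Ttr, Ahsg, Apoh, Serpina1c, Fabp1 and Hpx) were therefore divided by the same ratio in hepatocyte-like cells, and a quotient of 1 is what such background gives.

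In healthy endothelial-like cells the quotient was 1.20 (1.07 to 1.35) for F2, 0.963 (0.711 to 1.28) for F5, 0.773 (0.508 to 1.13) for F9, 1.35 (1.23 to 1.48) for Serpinc1 and 1.67 (1.43 to 1.95) for F10. All 5 hepatocyte-led genes lay between 0.5 and 2, a range that admits an excess of up to 2-fold. The intervals of F5 and F9 hold 1, so their UMIs in endothelial-like cells were about as many as free hepatocyte RNA would bring. The intervals of F2, Serpinc1 and F10 lie above 1. F10 had 202 UMIs against 121 expected, and its quotient stayed between 1.47 and 1.75 over 9 alternatives. With only the 144 shallower hepatocyte-like cells as the source, an alternative chosen after seeing the data, F5 moved to 2.80 (1.74 to 4.59) and F2 to 1.78, while F10 stood at 1.57. In mesothelial-like cells the intervals of F2, F5, F9, F10 and Serpinc1 hold 1, and Proc had 26 UMIs against 7 expected, a quotient of 3.72 (2.41 to 5.49). The expected number for Proc counts hepatocyte RNA alone. Free RNA of cholangiocyte-like cells, where Proc was highest, was not added for mesothelial-like cells, and its part was not tested.

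Cholangiocyte-like cells needed another reference. They held Alb at 5526 CPM but Apoa1 at 45.4 CPM, whereas hepatocyte-like cells held 32464 and 5586 CPM, so these transcripts were not in the ratio of a hepatocyte source. With all 10 genes as reference F2 had a quotient of 0.154 there. With Apoa1 alone the quotients were 1.55 (1.33 to 1.79) for F2, 1.83 (1.31 to 2.50) for F5 and 0.808 (0.425 to 1.40) for F9. They were 1.47 (1.14 to 1.85) for F10 and 1.51 (1.32 to 1.72) for Serpinc1. The interval of F9 holds 1, and those of F2, F5, F10 and Serpinc1 lie above it. Shares of cells with a UMI were also low outside the hepatocyte-like class. After thinning each cell to 2000 UMIs, which left out 15 hepatocyte-like, 548 endothelial-like and 83 cholangiocyte-like cells, 65.4% of hepatocyte-like, 5.18% of endothelial-like and 3.1% of cholangiocyte-like cells had a UMI of Serpinc1, and unthinned 78.0%, 13.6% and 15.6% did, at median depths of 5240, 5924 and 11172 UMIs.

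**Figure D2:**
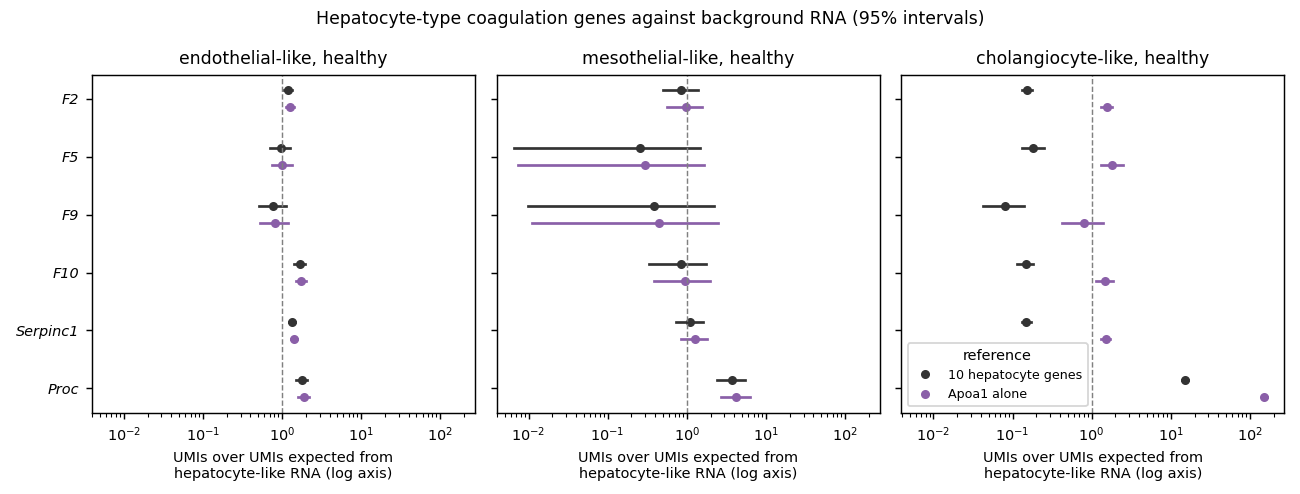
UMIs of 6 genes in 3 healthy classes over the UMIs expected from hepatocyte-like RNA, on a log axis, with 10 hepatocyte genes (black) or Apoa1 alone (purple) as the reference. Points are quotients, lines are 95% exact intervals, and the dashed line at 1 is what background gives. Proc stands at 15.2 or 153 in cholangiocyte-like cells, far from the line.

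Proc, the zymogen of the anticoagulant protein C, had its highest level in bile duct epithelium. Cholangiocyte-like cells held 6694 of its 7726 healthy UMIs, or 86.6% (85.9 to 87.4), at 366 CPM (357 to 375), and hepatocyte-like cells held 757 UMIs at 294 CPM (273 to 316). The ratio of the levels was 1.25 (1.16 to 1.34). The share of UMIs depends on the cells captured, 1434 cholangiocyte-like and 191 hepatocyte-like, and is not a share of the whole liver. Per 100 cells these classes held 467 and 396 UMIs of Proc. Endothelial-like cells were at 9.09 CPM and mesothelial-like cells at 6.77 CPM.

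The quotient of Proc in cholangiocyte-like cells was 15.2 (14.1 to 16.5) with 10 reference genes and 7.32 with Alb alone, so its UMIs there far exceeded what hepatocyte RNA would bring. Both cholangiocyte-like clusters carried it, at 366 CPM in 1263 cells and 386 CPM in 171 cells of low UMI count. After thinning to 2000 UMIs, 51.9% of cholangiocyte-like and 34.7% of hepatocyte-like cells had a UMI of it, against 1.97% of endothelial-like cells, and unthinned the shares were 91.0%, 62.3% and 4.90%. Krt19, a keratin of bile ducts, was at 604 CPM in cholangiocyte-like and 8.54 CPM in hepatocyte-like cells.

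In endothelial-like cells the quotient of Proc against hepatocyte RNA was 1.79 (1.51 to 2.10), and its interval overlaps that of F10. When free RNA of cholangiocyte-like cells was added as a source, through 10 of their genes (an alternative chosen after seeing the data), 182 UMIs stood against 159 expected, a quotient of 1.14 (0.983 to 1.32). In the CCl4 library, 33 cholangiocyte-like cells held 68 of 141 Proc UMIs, at 275 CPM, and 25 of the 33 cells (75.8%) had a UMI.

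F8, the haemophilia A gene, was endothelial-led. Endothelial-like cells held 16461 of 16729 healthy UMIs, or 98.4% (98.2 to 98.6), at 822 CPM (809.6 to 835), and 89.2% of them had a UMI of it, or 76.2% after thinning to 2000 UMIs. Hepatocyte-like cells were at 13.6 CPM, cholangiocyte-like cells at 5.96 CPM and mesothelial-like cells at 3.91 CPM, and 2.75%, 1.28% and 0.967% of these cells had a UMI after thinning. Set against free endothelial RNA in the same way, with 10 endothelial genes as the reference (Pecam1, Cdh5, Kdr, Egfl7, Eng, Clec4g, Fcgr2b, Stab2, Gpr182 and Dnase1l3), F8 had a quotient of 1.37 (0.957 to 1.91) in hepatocyte-like and 0.901 (0.739 to 1.09) in cholangiocyte-like cells, so no hepatocyte signal of F8 beyond background was detectable at this depth.

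Vwf and Thbd were also endothelial. Vwf stood at 183 CPM in endothelial-like cells, which held 97.2% of its healthy UMIs, and at 1.94 CPM in hepatocyte-like cells. Its quotients against endothelial RNA were 0.883 in hepatocyte-like and 0.854 in cholangiocyte-like cells, both with intervals that hold 1. Thbd was at 122 CPM in endothelial-like cells, 0.388 CPM in hepatocyte-like and 0.820 CPM in cholangiocyte-like cells.

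Mesothelial-like cells carried Thbd as well. They were at 25.0 CPM from 96 UMIs, a quotient of 10.2 (8.23 to 12.5) against endothelial RNA, while F8 and Vwf had 0.236 and 0.142 in the same cells. Thrombomodulin was thus the endothelial-led gene with counts in mesothelial-like cells beyond those of the other endothelial genes.

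Pros1 was found in more than 1 class. Endothelial-like cells held it at 309 CPM and 87.0% of its healthy UMIs, cholangiocyte-like cells at 42.6 CPM, hepatocyte-like cells at 28.0 CPM and mesothelial-like cells at 1.56 CPM. Against free endothelial RNA, the quotient was 17.1 (15.9 to 18.5) in cholangiocyte-like and 7.54 (5.89 to 9.50) in hepatocyte-like cells, in which F8, Vwf and Thbd gave intervals that hold 1. Protein S transcripts in both epithelial classes were therefore more than endothelial background gives. In 11 healthy mesenchymal-like cells, too few to compare, 9 UMIs were counted.

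Endothelial-like cells were not uniform. Of 3 healthy clusters, clusters 0 (2067 cells) and 1 (1210 cells, at 0.369 times the median UMIs of the library) were led by genes such as Clec4g, Dnase1l3 and Stab1, which mark sinusoidal endothelium. Cluster 9 (230 cells) had 11 of 12 large-vessel markers at least 2-fold above the other endothelial-like cells, among them Gja5, Bmx, Selp and Sema3g. The central-zone markers were split, with 4 of 8 at least 2-fold higher (Wnt9b, Rspo3, Cdh13 and Lhx6) and the other 4 at least 2-fold lower. The members were left out of the genes used for clustering.

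Vwf belonged mainly to cluster 9, at 1443 CPM, against 24.3 CPM in cluster 0 and 133 CPM in cluster 1, and 85.2%, 4.60% and 8.60% of the cells of clusters 9, 0 and 1 had a UMI of it. The ratio of cluster 9 to cluster 0 was 59.4 (53.1 to 66.7). F8 ran the other way, at 862, 919 and 333 CPM in clusters 0, 1 and 9, a ratio of 0.387 (0.357 to 0.419) between clusters 9 and 0. The factor VIII gene and the gene of its plasma carrier thus had their highest levels in different endothelial clusters of the same library.

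Thbd was at 115, 95.8 and 224 CPM in clusters 0, 1 and 9, and Pros1 at 330.1, 297 and 175 CPM. Thrombomodulin was higher in the large-vessel cluster by 1.95-fold (1.75 to 2.17) against cluster 0, and protein S lower, at 0.530 times (0.473 to 0.592). Platelet markers were near 0 in cluster 9, with Ppbp at 0 UMIs and Pf4 at 1 UMI.

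**Figure D3:**
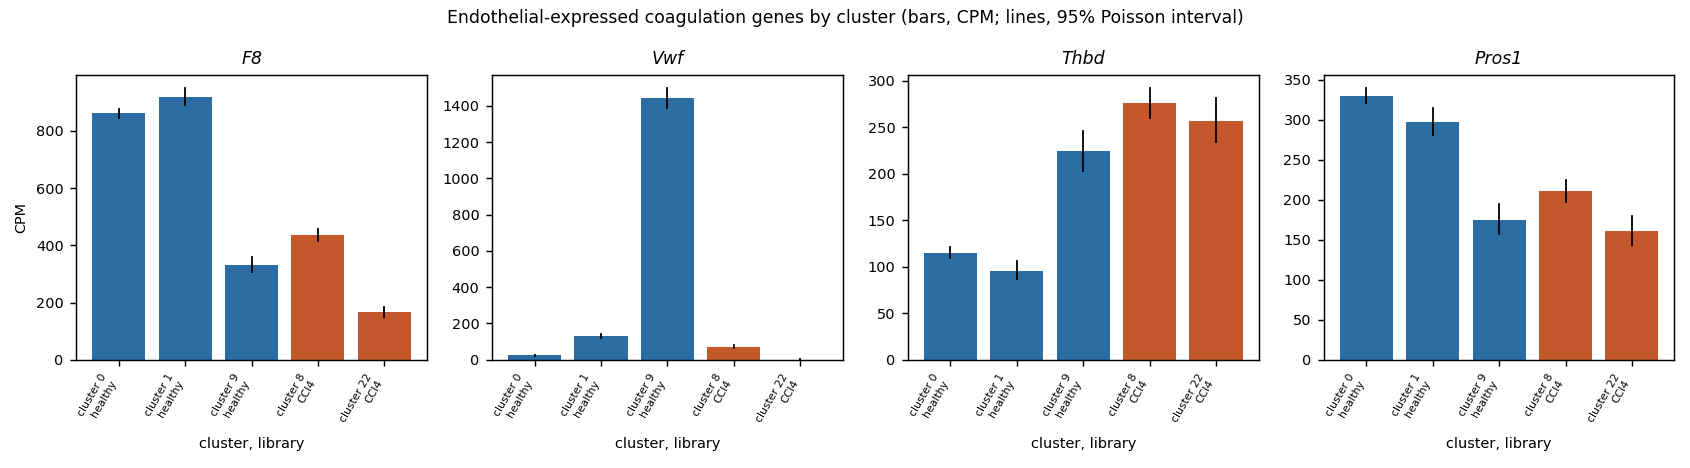
F8, Vwf, Thbd and Pros1 in 3 healthy endothelial-like clusters (blue) and in clusters 8 (unnamed) and 22 (with stellate transcripts) of the CCl4 library (orange). Bars are CPM from 0 and lines 95% Poisson intervals, 1 library per group. Vwf peaks at 1443 CPM in cluster 9, where F8 is at 333 CPM.

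Within cluster 9 the cells with a UMI of Rspo3, a central-vein gene, had Vwf at 2482 CPM and the others at 1012 CPM, a ratio of 2.45 (2.28 to 2.64), whereas F8 gave 0.989 and Thbd 1.05. The 10 cells with Mmrn1, a gene of lymphatic vessels, had no Vwf UMI, and 2795 UMIs lay in the other 220 cells. In these 10 cells Thbd was at 369.6 CPM. The 17 cells with Prox1 or Pdpn, also used as lymphatic genes, did hold Vwf, with 78 UMIs at 584 CPM, a ratio of 0.388 (0.305 to 0.486) to the others. These splits were chosen after seeing the data.

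Sinusoidal cells were further divided by whether central-zone or portal-zone markers had more UMIs, also after seeing the data. In cluster 0, 712 cells had more central and 1310 more portal marker UMIs, 45 were tied, and 131 lay within 1 UMI. Thbd was at 183 CPM (171 to 196) in the central cells and 81.1 CPM (75.4 to 87.1) in the portal cells, a ratio of 2.26 (2.05 to 2.50). In the separate cells of cluster 1, from the same library, the ratio was 2.41 (1.96 to 2.98). There 355 cells were central and 767 portal, 88 were tied, and 250 of 1210 lay within 1 UMI.

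F8 differed less between these zones, with ratios of 1.23 in cluster 0 and 1.39 in cluster 1, and Pros1 gave 1.12 and 1.03. Vwf was lower in the central cells of cluster 0, at 14.5 against 29.9 CPM, but its ratio in cluster 1 was 0.978 (0.808 to 1.18).

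The genes with the most similar pattern over the 9 healthy clusters of at least 50 cells were taken by the Pearson correlation of log2(CPM + 1), among 6509 genes. The clusters share a library, so the values are descriptive. F8 lay closest to Stab1 (r = 0.998), a scavenger receptor of sinusoidal endothelium, with Arhgef15 and Pde2a next. Vwf lay closest to Rspo3 (0.968), followed by Col8a1 and Npr3.

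For Proc the closest gene was Foxa2 (0.992), a transcription factor of liver epithelium, followed by Habp2 and Serpina6. Thbd was closest to Hpse (0.997), then Rcsd1 and Slc43a3, and Pros1 to Lyn (0.989), then Slc29a1 and Cd36. The hepatocyte-led genes lay closest to other hepatocyte genes: F2 to Serpina3k, Mup10 and Cyp2c68, F5 to Mup10, Cyp7b1 and Mug1, F9 to Hamp2, Rgn and Nat8f2, F10 to Saa1, Ces2a and Apoa1, and Serpinc1 to Nat8f2, Hamp and Mettl7b.

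After CCl4 the comparison is limited by which cells were captured. In 5 hepatocyte-like cells (40298 UMIs) F2 had 15 UMIs, F10 12, Proc 9, F5 5 and Serpinc1 19, with none of F9. These cells allow no comparison. An unnamed cluster of low UMI count (cluster 3) with 18 of 21 hepatocyte markers held 136 healthy and 324 CCl4 cells, at 0.105 times the median UMIs, and had Serpinc1 at 321 and 101 CPM, F2 at 174 and 64.0 CPM, F10 at 158 and 59.6 CPM and Proc at 142 and 79.4 CPM in healthy and CCl4 cells. The median UMIs were 1266 and 886, and their part in this was not tested.

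Most CCl4 cells with endothelial markers lay in clusters 8 and 22, and neither was plain endothelium. Cluster 22 holds 87 of the 96 cells that the naming rule called endothelial-like, with 13 of 43 endothelial markers and 1.76 times the median UMIs. Its leading genes include Erg and Pde2a but also Rgs5 and Colec10, which lead the stellate-type mesenchymal-like cluster 12. Rgs5 was at 1223 CPM in cluster 22, 1395 CPM in cluster 12 and 5.99 CPM in healthy endothelial-like cells, and Colec10 at 228, 281 and 2.45 CPM.

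Col1a1, a collagen gene of mesenchymal cells, was at 2079.6 CPM and Pecam1, an endothelial adhesion gene, at 252 CPM in cluster 22, against 679 CPM of Pecam1 in healthy endothelial-like cells. Values of these 96 cells are therefore those of a population with endothelial and stellate transcripts, and are not a measure of change in endothelial cells.

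Cluster 8 had 636 CCl4 cells with 34 of 43 endothelial markers and Rgs5 at 14.4 CPM, but stayed unnamed, since globin genes were among its leading genes (Hbb-bs at 11998 CPM). Esm1, a gene of activated endothelium, was at 222 CPM there and 11 CPM in healthy endothelial-like cells. It also held 52 healthy cells, with a median of 1998 UMIs against 6539 in the CCl4 cells and Pecam1 at 123 against 615 CPM.

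In CCl4 cells of cluster 8, F8 was at 436 CPM, 0.530 times (0.505 to 0.556) the level of healthy endothelial-like cells but above the 92.1 CPM of the healthy cells of cluster 8. Pros1 was at 211 CPM, 0.684 times healthy endothelial-like cells, and 47.6 CPM in the healthy cells of cluster 8. The direction for both genes thus turns with the healthy cells chosen. Vwf was at 72.7 CPM, against 183 CPM in healthy endothelial-like cells and 78.3 CPM in the healthy cells of cluster 8. Of the healthy endothelial-like UMIs of Vwf, 2795 of 3663 lay in cluster 9, which held 0 CCl4 cells. Healthy clusters 0 and 1 were at 24.3 and 133 CPM. In the Vwf ratios to healthy endothelial-like cells, a lower level and fewer large-vessel cells thus cannot be told apart.

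In the CCl4 cells of cluster 8 Thbd was at 276 CPM, 2.27 times (2.11 to 2.43) the healthy endothelial-like level. It was also above the 16.9 CPM of the healthy cells of cluster 8. The 96 cells with stellate transcripts had Thbd at 255 CPM, 2.09 times (1.89 to 2.31) the healthy endothelial-like level, F8 at 177 CPM, 0.215 times (0.193 to 0.240), Pros1 at 166 CPM, 0.538 times, and Vwf at 0.530 CPM, from 1 UMI.

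Against healthy endothelial-like cells, 2 of these 4 genes were past 2-fold in cluster 8, where 15.4% of 4037 genes were, and 3 in the 96 cells, where 28.5% of 4319 genes were. The median log2 ratio of all tested genes was -0.28 in both comparisons and -0.12 in mesothelial-like cells. Relative to this shift the F8 ratio to healthy endothelial-like cells stays below 1 and the Thbd ratio above it. The interval of Thbd in the 96 cells, 232 to 278 CPM, overlaps that of healthy cluster 9, 203 to 246 CPM, the highest of the healthy endothelial-like clusters. Condition, library and Cell Ranger version cannot be told apart.

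Mesothelial-like cells were present in both libraries. Thbd was at 25.0 CPM in healthy and 42.3 CPM in CCl4 cells, a ratio of 1.69 (1.37 to 2.10), and Pros1 at 1.56 and 23.0 CPM, a ratio of 14.7 (6.73 to 40.3), with 6 UMIs behind the healthy value. Of the 659 CCl4 UMIs of Pros1, 571 lay in cluster 20, which met only 3 of 16 mesothelial markers. When the cluster with most mesothelial markers of each library was taken (clusters 18 and 10, an alternative chosen after seeing the data), the ratios were 1.54 and 4.16. Col1a1 was at 133 CPM in healthy and 848 CPM in CCl4 mesothelial-like cells. No member reached 50 CPM in this class, so none was among the 3594 genes tested, of which 27.6% were past 2-fold.

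**Figure D4:**
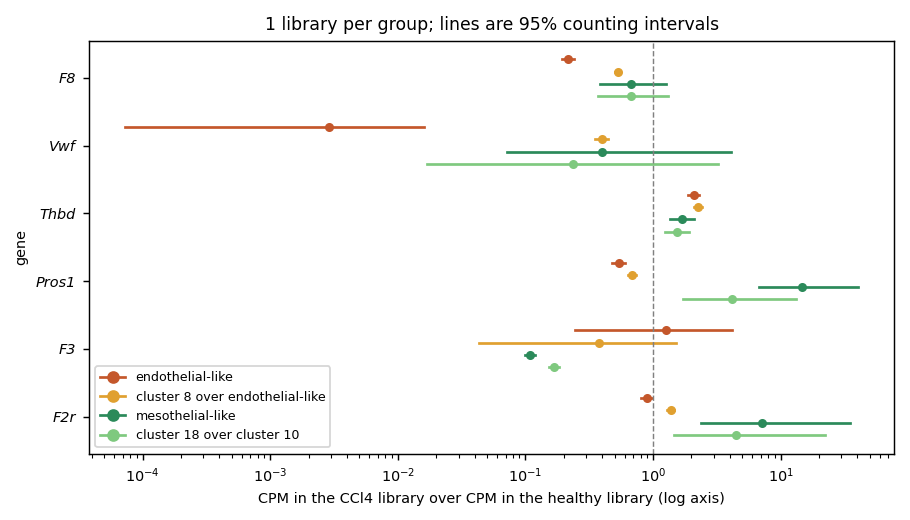
Level in the CCl4 library over the level in the healthy library for 4 members and for F3 and F2r, in 4 pairs of populations, on a log axis. Points are ratios of CPM with 95% exact counting intervals, from 1 library per group, and the dashed line is a ratio of 1. Thbd lies to the right of the line in all 4 pairs, and F8 to the left in both pairs with healthy endothelial-like cells, of which the first holds CCl4 cells with stellate transcripts.

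Protein S transcripts of the CCl4 library lay mostly in mesenchymal-like cells, which held 4503 of 6666 Pros1 UMIs, or 67.6% (66.4 to 68.7), at 101 CPM. This share depends on the cells captured, since the class held 44462003 of all 87470008 CCl4 UMIs. Its level was below the 211 CPM of CCl4 cells of cluster 8 and the 166 CPM of the 96 cells called endothelial-like. Of the 4 mesenchymal-like clusters, 7, 11 and 12 stood at 102, 96.9 and 110.1 CPM, and cluster 21 at 90.5 CPM. The mesenchymal-like class held Thbd at 19.0 CPM and F8 at 5.42 CPM. Of its 241 F8 UMIs, 81 lay in the 169 cells of cluster 21, at 40.3 CPM, and the other 3 clusters were between 2.88 and 4.94 CPM. Cluster 21 entered the class with 9 of 24 markers, but none of its 10 leading genes is a mesenchymal marker. They include granule genes of immature neutrophils (Elane, Ctsg, Mpo and Prtn3) and cell division genes. Its F8 and its 182 UMIs of Pros1 therefore cannot be assigned to mesenchymal cells. Serpinc1 and F2 were at 1.82 and 0.427 CPM in mesenchymal-like cells. This class held 40.5% of the CCl4 UMIs of Serpinc1, which is below its share of the CCl4 cells, 45.8%.

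F10 and F5 stood above hepatocyte background in immune cells that remained after CD45 depletion. Macrophage and monocyte-like cells held 45 of 102 CCl4 UMIs of F10, at 44.0 CPM (32.1 to 58.9), a quotient of 145 (75.6 to 302) against free hepatocyte RNA, whose source was the 5 hepatocyte-like cells. F2 had 0 UMIs in the same 178 cells, which allows 3. Neutrophil-like cells held F5 at 39.1 CPM from 13 UMIs, a quotient of 172 (57.4 to 615), and macrophage and monocyte-like cells at 7.82 CPM from 8 UMIs. The latter also held Thbd at 23.5 CPM, from 24 UMIs, and Pros1 at 22.5 CPM, from 23 UMIs. Their quotients against RNA of the 96 cells called endothelial-like were 1.15 (0.729 to 1.73) and 1.69 (1.06 to 2.58). Mesenchymal-like cells held 21.4% of the CCl4 UMIs of Thbd and 67.6% of those of Pros1. Their free RNA was not taken as a source, and its part was not tested.

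Within the macrophage and monocyte-like cells, 62 cells with a UMI of Ccr2 or Chil3, genes of recruited monocytes, held 42 of the 45 F10 UMIs, at 89.0 CPM against 5.45 CPM in the other 116 cells. The ratio was 16.3 (5.22 to 82.4), and the median depths were 7334 and 2424 UMIs. The 68 cells with Clec4f or Timd4, genes of Kupffer cells, the resident macrophages of the liver, held none, which allows 3 UMIs. In the neutrophil-like cluster, whose leading genes also include basophil genes, 54 of 86 cells had Retnlg and held 11 of 13 F5 UMIs. The 13 cells with Mcpt8 or Prss34 held none. The ratios of the F5 level to that of the other cells were 2.96 (0.646 to 27.5) and 0 (0 to 1.72). Both intervals hold 1, so these counts do not place F5 in either kind of cell. These splits were chosen after seeing the data.

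Of 38 other genes of coagulation and fibrinolysis, 29 reached 50 CPM in a named class of at least 50 cells. Of these, 18 had their highest level in healthy hepatocyte-like cells, and 3 in healthy endothelial-like, 2 in healthy mesothelial-like, 4 in CCl4 mesenchymal-like, 1 in macrophage and monocyte-like and 1 in neutrophil-like cells. The share of all genes led by each class is not given here, so these counts only describe the list. For Lman1 and Furin among the 18, the interval of the ratio to endothelial-like cells holds 1. The chains of fibrinogen, the substrate of thrombin, were hepatocyte-led (Fga 1751, Fgb 3216 and Fgg 2717 CPM), as were F13b (117 CPM) and Cpb2 (360.3 CPM), while F13a1, the catalytic subunit of factor XIII, was at 53.8 CPM in macrophage and monocyte-like cells.

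All 4 contact system genes above the minimum were hepatocyte-led, with Kng1 at 1339, F12 at 283, Klkb1 at 198 and Kng2 at 174 CPM. The initiation step was divided between classes. F3, tissue factor, was at 286 CPM in healthy mesothelial-like cells, F7 at 94.0 CPM and Tfpi2 at 70.3 CPM in hepatocyte-like cells, and Tfpi, the tissue factor pathway inhibitor, at 283 CPM in endothelial-like cells. F3 was lower in CCl4 mesothelial-like cells, at 30.9 CPM, a ratio of 0.108, or 0.169 (0.154 to 0.185) in cluster 18 over cluster 10.

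Among inhibitors, Serpind1 (271 CPM), Proz (161 CPM) and Serpina10 (149 CPM) were hepatocyte-led and Serpine2 reached 325 CPM in CCl4 mesenchymal-like cells. Procr, the endothelial protein C receptor gene, stayed below 50 CPM in all named classes, at 40.4 CPM in healthy and 40.5 CPM in CCl4 mesothelial-like cells, with an interval of the ratio of 0.847 to 1.19, although the CCl4 cells of cluster 18 alone had 52.6 CPM. In fibrinolysis, Plg (860.0 CPM) and Serpinf2 (254 CPM) were hepatocyte-led, and Plat (191 CPM), a plasminogen activator, was highest in mesenchymal-like cells and Plaur (271 CPM) in neutrophil-like cells.

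Of the genes for the vitamin K cycle and for factor secretion, Lman1 (189 CPM) and Furin (73.0 CPM) were highest in hepatocyte-like and Mcfd2 (201 CPM) in endothelial-like cells. Endothelial-like cells held Lman1 at 178 and Furin at 62.4 CPM. The ratios of hepatocyte-like to endothelial-like cells were 1.06 (0.965 to 1.17) and 1.17 (0.998 to 1.36), with intervals that hold 1. Lman1 and Mcfd2 form the receptor that carries factors V and VIII out of the endoplasmic reticulum. Vkorc1 was highest in mesenchymal-like cells (211 CPM) and Gas6, a relative of protein S, in healthy mesothelial-like cells (2365 CPM). The thrombin receptor gene F2r was at 279 CPM in healthy endothelial-like cells and Lrp1, a clearance receptor, at 575 CPM in mesenchymal-like cells.

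**Figure D5:**
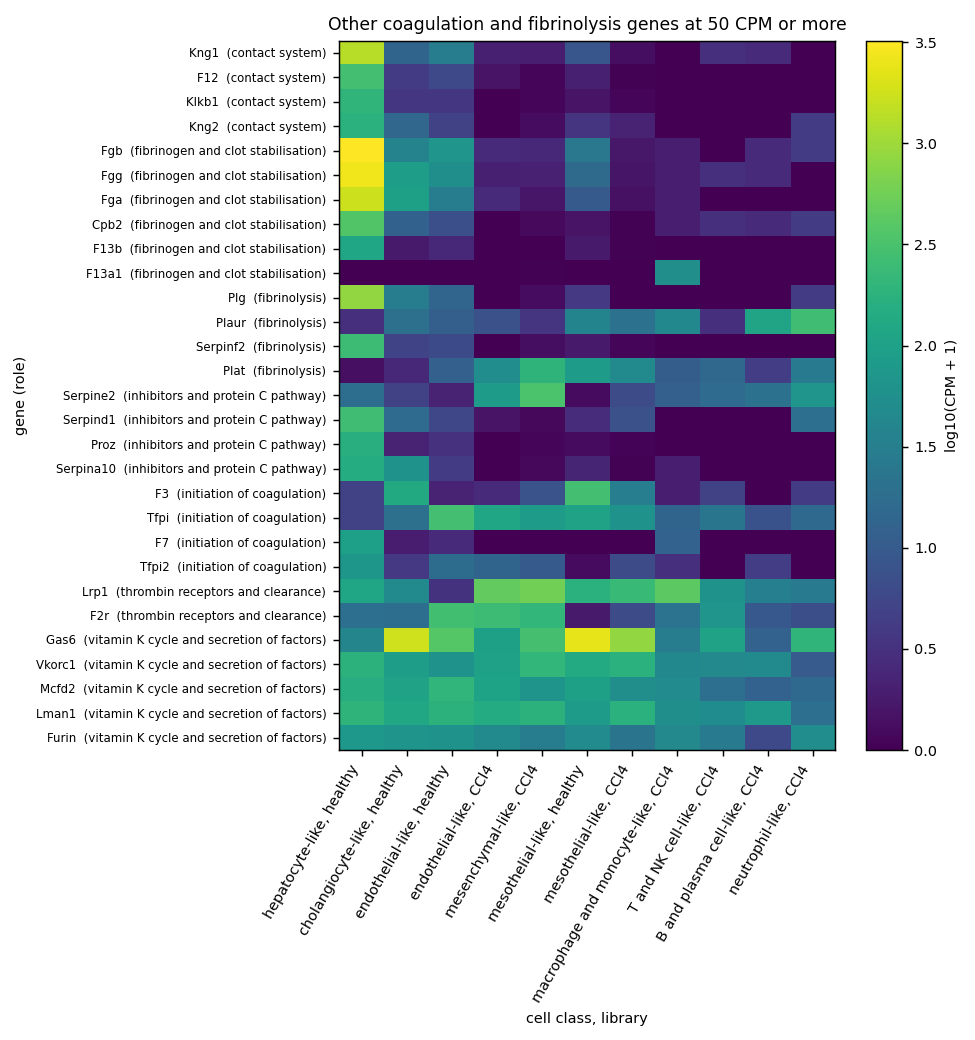
Level of the 29 other coagulation and fibrinolysis genes with at least 50 CPM in a named class, as log10(CPM + 1) in colour, with genes and their roles in rows and classes with at least 50 cells of a library in columns. The first column, healthy hepatocyte-like cells, holds the highest level of 18 genes.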

How the data were processed

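Single liver cells were profiled by droplet sequencing in 1 healthy and 1 CCl4 library. The authors deposited counts of UMIs per gene and called cell, without normalization. Per the file headers the matrices came from Cell Ranger 3.1.0 (healthy, 31053 genes) and 6.0.1 (CCl4, 32285 genes), whereas the study's methods describe an in-house pipeline with featureCounts 1.6.2 and a human build, which the mouse identifiers contradict. No coordinates were taken from the files.

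The files held 6297 healthy cells with 51122846 UMIs and 8460 CCl4 cells with 97611831 UMIs. A minimum of 500 UMIs and 200 genes left 6218 and 8305 cells, a limit of 30% mitochondrial UMIs removed 339 and 504, and 277 and 487 with the highest Scrublet scores were removed as doublets. The libraries were clustered together on the genes of both lists (scanpy 1.11.5, 2000 variable genes without the coagulation genes, 10 principal components, 20 neighbours, Leiden resolution 1, seed 1). A class name needed at least 3 markers at 2-fold or more in at least 10% of cells, no more markers of another class than of its own among the 10 leading genes, and a median UMI count of at least 0.333 times that of its library unless its markers were among them. Of 23 clusters, 5 stayed unnamed. CPM carry exact Poisson, shares Clopper-Pearson and ratios exact conditional binomial 95% intervals. UMIs remove PCR copies, and the intervals cover counting error only. A count of 0 allows 3 counts. Named were all members, pathway genes of at least 50 CPM in a class of at least 50 cells and the 3 genes most similar to each member. Alternatives were other filters on cells, doublets kept, 30 components, resolution 2, each library clustered alone, cells weighing the same, other reference genes, the 50 most abundant genes left out and TMM factors (edgeR 4.0.16, R 4.3.3). 1 gene of the pathway list is not reported here. The members and lists were chosen with earlier results of these data known. The ratio code was tested on simulated data.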

Additional observations from a re-analysis of the deposited data

Results flagged for a closer look

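Pros1 lay on opposite sides of its healthy level in 2 classes. Its CCl4 level was 0.538 times the healthy level in the 96 cells called endothelial-like and 14.7 times in mesothelial-like cells, with intervals on opposite sides of 1. It is listed here because of these opposite directions, and the difference between the classes was not tested, since each condition is 1 library. The 96 cells also held stellate transcripts (Rgs5 at 1181 CPM against 5.99 CPM in healthy endothelial-like cells), so the first value is not a measure of endothelial cells alone. These cells and the CCl4 mesothelial-like cells held Col1a1 at 2011 and 848 CPM and mesenchymal-like cells held Pros1 at 101 CPM. Their part in either value was not tested.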

How the results depend on the processing

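No paired analysis was possible because each group has 1 library. The leading class of the 10 members stayed the same in every alternative that gave one; a mitochondrial limit of 10% left no hepatocyte-like class, and with doublets kept only 10 CCl4 endothelial-like cells remained, so these gave no value. Healthy levels are firmest for F8, Proc and Pros1 and moved most for F5, from 0.515 to 1.20 times its main level. The level of Proc in cholangiocyte-like over hepatocyte-like cells was 1.25 and became 1.36 with no mitochondrial limit, 1.10 with each library clustered alone and 1.61 with every cell weighing the same.

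Values after CCl4 depend on which cells are called endothelial-like, 96 here, with stellate transcripts among them, and 626 to 826 in the settings named next. With a mitochondrial limit of 10%, no such limit, at least 1000 UMIs, 30 components, resolution 2 and each library clustered alone, in this order, F8 over its healthy level (0.215 here) was 0.449, 0.552, 0.447, 0.441, 0.443 and 0.356, and Vwf (0.00290) was 0.286, 0.405, 0.272, 0.274, 0.282 and 0.212. In the first 5 of these, Pros1 (0.538) was 0.644, 0.713, 0.649, 0.652 and 0.655. Thbd (2.09) was 2.36 with no mitochondrial limit, 2.31 with 30 components, 2.32 with resolution 2 and 1.88 with each library alone. Without the 50 most abundant genes and with TMM alike, F8 was 0.242, Thbd 2.35 and Pros1 0.604. With cluster 8 in place of the endothelial-like cells F8 was 0.530, Vwf 0.397 and Pros1 0.684. In mesothelial-like cells, clustering each library alone gave 1.31 for Thbd (1.69 here) and 2.22 for Pros1 (14.7 here), and Pros1 was 5.37 with doublets kept and 4.16 in cluster 18 over cluster 10. No direction turned in any of these settings, but F8 and Pros1 in CCl4 cells of cluster 8 were higher than in its 52 healthy cells. In the main setting most healthy endothelial-like UMIs of Vwf lay in cluster 9, which held 0 CCl4 cells.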
